A study of Mus musculus with 8 samples.

Results

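The Mediator complex was examined through every array probe that the scanner files name Med followed by digits, with or without a final l, together with the probes of Cdk8, Cdk19 and Ccnc. These were 53 of the 55681 noncontrol probes on the array, for 33 named subunit genes of the 36413 gene or transcript names they carry. Of these genes, 18 had 1 probe, 11 had 2, 3 had 3 and 1 had 4. The family was chosen because of a genotype difference seen in these same data for Med16, so all genotype differences of its members are given as a description with no test.

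RNA came from wire-injured carotid arteries of miR-126-/- ApoE-/- mice (4 arrays) and miR-126+/+ ApoE-/- mice (4 arrays). Both groups were ApoE-/-, ate a western-type diet, were female, 6 weeks old and of mixed genetic background per the labels, and were sampled 14 days after injury. The array read 1 colour, and signals are log2 processed intensities set against the 75th percentile of each array. A positive difference means higher in miR-126-/- arteries. The labels do not say from which litters the mice came, and p-values measure only the spread between these arrays. In whole arteries, fewer cells of a type and less RNA per cell cannot be told apart.

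Mediator is the large coactivator that carries signals from DNA-bound transcription factors to RNA polymerase II at promoters. Its head and middle modules contact the polymerase, its tail module is the main landing place for activators, the Med14 subunit runs through all of them as a backbone, and a separable kinase module of Cdk8 or Cdk19, cyclin C, Med12 and Med13 regulates how the core engages the polymerase. Its subunits are expressed in nearly every cell type, the smooth muscle, endothelial and inflammatory cells of an injured artery included.

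Med16 encodes a tail subunit and had a pair of probes, with starts 214 bases apart on the minus strand of chromosome 10 in mouse build mm9. The brighter lay at chr10:79357669-79357728 and the second at chr10:79357455-79357514, and each is 60 bases long per the files. Exons and untranslated regions of that build were not assigned here. The sequences below are shown because the brighter probe's letters recur in probes of other genes. Capitals in the first 6 mark bases identical to the brighter Med16 probe over the stretch shown, and capitals in the last mark the letters AATAAA, the form of a polyadenylation signal. Elk1 encodes an ETS transcription factor, F10 coagulation factor X, Cxcl11 a chemokine and Ndor1 a flavin-containing oxidoreductase. ENSMUST00000100431 is a transcript identifier to which no gene name was given here.
Med16 brighter probe: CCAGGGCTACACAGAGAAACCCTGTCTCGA
Elk1: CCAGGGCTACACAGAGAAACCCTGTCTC
F10: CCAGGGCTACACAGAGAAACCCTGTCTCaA
Cxcl11: CCAGGGCTACACAGAGAAACCCTaTCTtaA
ENSMUST00000100431: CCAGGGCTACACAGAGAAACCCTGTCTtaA
Ndor1: CCAGGGCTACACAGAGAcACCCTGTCTCcc
Med16 second probe: actggcccAATAAAgttctctgatgcact

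As background, letters of this kind are typical of B1 elements, short interspersed repeats that are scattered through mouse genes and often transcribed inside untranslated regions and introns. No repeat annotation was used here. By the probe sequences, 14 probes of other genes or transcripts shared a run of at least 20 bases with the brighter Med16 probe, 11 on the same strand and 3 on the opposite strand. The files' own annotation of the brighter probe lists RefSeq transcripts of Med16, Btaf1 and Ccdc167, which made it the only 1 of the 53 Mediator probes to list another gene. The second Med16 probe shared no such run with any other probe. Its letters AATAAA, searched on the probe strand, also stood in 5602 probes (10.1% of all) and in 7 Mediator probes. The 20-base core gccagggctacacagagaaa, searched on both strands, was found in 12 of 32851 RefSeq promoter windows (0.0365%). Only exact matches in the same letter case were counted. The length of the windows is not given here, and nothing is read from this share.

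The brighter Med16 probe read 6.27, 6.20, 6.00 and 6.13 on the miR-126-/- arrays, against 7.89, 7.85, 8.11 and 7.70 on the miR-126+/+ arrays. Before scaling, these were processed intensities of 64705, 58277, 54334 and 46812 on the miR-126-/- arrays, against 170461, 189709, 170554 and 179515 on the miR-126+/+ arrays. All miR-126-/- arrays lay below all miR-126+/+ arrays by a wide gap. The means were 6.15 ± 0.11 on miR-126-/- arrays and 7.89 ± 0.17 on miR-126+/+ arrays (SD, n = 4 each), a log2 difference of -1.74 ± 0.11 (SE).

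The second Med16 probe read 1.88, 1.80, 1.89 and 1.85 on the miR-126-/- arrays, against 1.82, 1.80, 1.64 and 1.83 on the miR-126+/+ arrays. The genotypes overlapped, and the difference was 0.08 ± 0.08. The brighter probe thus read far lower on miR-126-/- arrays while the other probe of the same gene did not. The differences of the Med16 probes were 1.82 apart. Of the 6014 genes with at least 2 tested probes, 52 (0.86%) had probes at least this far apart, and the median over all 6014 was 0.16. The Med16 difference chose the family, so this share is a description and no test. Among the other 14 Mediator genes with more than 1 probe the distance was between 0.02 and 0.40, and the median over all 15 Mediator genes was 0.10.

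**Figure D1:**
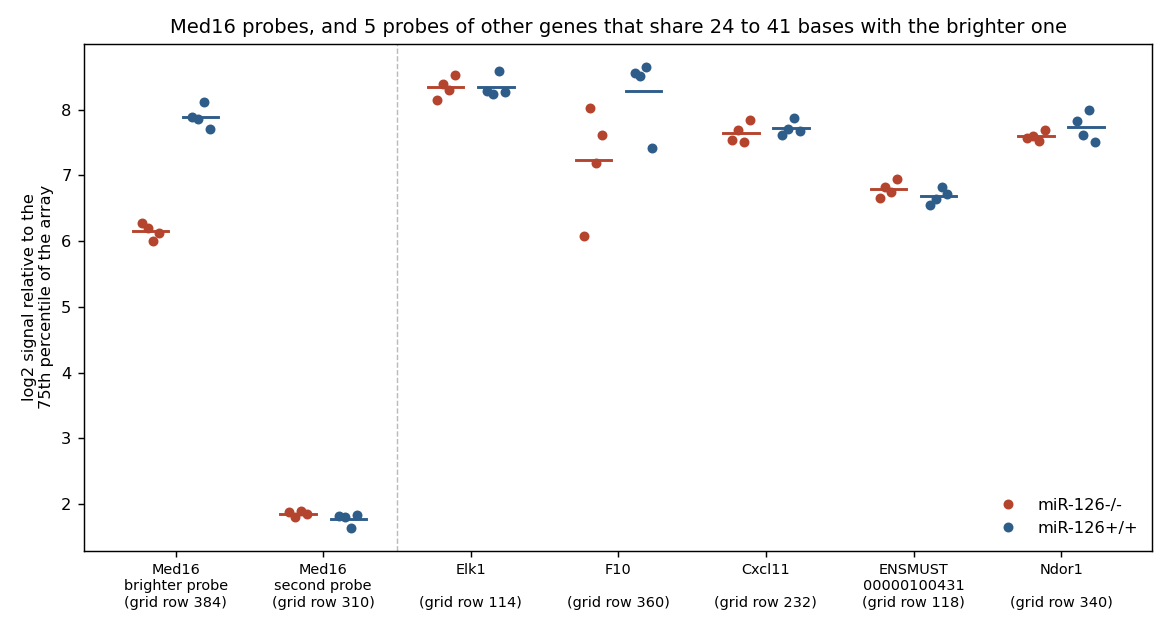
Signal of both Med16 probes and of 5 probes of other genes that share a run of letters with the brighter one, in log2 units scaled to the 75th percentile (vertical axis), with each point 1 array and each bar a mean of 4 arrays. The brighter Med16 probe sits at 6.00 to 6.27 on miR-126-/- arrays and at 7.70 to 8.11 on miR-126+/+ arrays. The second Med16 probe, Elk1, F10, Cxcl11, Ndor1 and ENSMUST00000100431 overlap between genotypes.

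The probes that share letters with the brighter Med16 probe were then set beside it by their own genotype differences. Elk1, which shares a run of 41 bases, read 8.15, 8.39, 8.30 and 8.52 on the miR-126-/- arrays, against 8.29, 8.23, 8.59 and 8.26 on the miR-126+/+ arrays. The genotypes were interleaved, with a difference of -0.00 ± 0.12. F10, with a run of the same 41 bases, read 6.08, 8.02, 7.19 and 7.61 on the miR-126-/- arrays, against 8.55, 8.51, 8.65 and 7.42 on the miR-126+/+ arrays. Its difference was -1.05 ± 0.45, with overlap and with wide spread in both genotypes. The remaining 10 probes on the same strand had differences between -0.36 and 0.19 with a median of -0.015. The lowest of them, 9230110C19Rik at -0.36 ± 0.10, did not overlap between genotypes, with 4.20 to 4.42 on miR-126-/- arrays and 4.55 to 4.83 on miR-126+/+ arrays. The 3 probes on the opposite strand had differences between 0.03 and 0.24. The genes that the brighter probe's annotation also lists had probes of their own. Btaf1, which encodes a TATA-binding protein associated ATPase, differed by -0.12 ± 0.11, and the Ccdc167 probes by -0.02 ± 0.10 and 0.17 ± 0.20.

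The position of the brighter Med16 probe on the array, which is the same on all arrays, was also looked at. The spots lie on a grid of 384 rows and 164 columns, and this probe is printed in row 384, the last, while the second Med16 probe is in row 310. Of the probes that share its letters on the same strand, F10 is in row 360 and the other 10 are in rows up to 343. Bright spots, those with a mean log2 signal above 5, were grouped by grid row, with a local dim area of array miR-126-/- 4 left out. The rows, the brightness threshold and the comparison of copies that follows were chosen after the data were seen, and other row limits had been looked at first. In rows 1 to 8 the median genotype difference of 27 bright spots was 0.23. In rows 9 to 360 it was -0.02 over 1337 spots, of which 2 were at -1 or below, Gm5213 in row 304 and F10 in row 360. In rows 361 to 380 it was -0.17 over 65 spots, of which 2 were at -1 or below. In rows 381 to 384 it was -0.39 over 20 spots, and 5 of the 20 were at -1 or below. These 5 were Med16, Gm6274 (-1.69), the ribosomal protein genes Rplp0 (-1.21) and Rpl7a (-1.07), and the ribosomal RNA probe Rn18s (-1.01). The Med16 spot, whose difference chose the family, is thus counted in the 20, in the 5 and in the median. By these medians, bright spots in the last rows read lower on miR-126-/- arrays across unrelated genes, and those in the first rows higher.

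**Figure D2:**
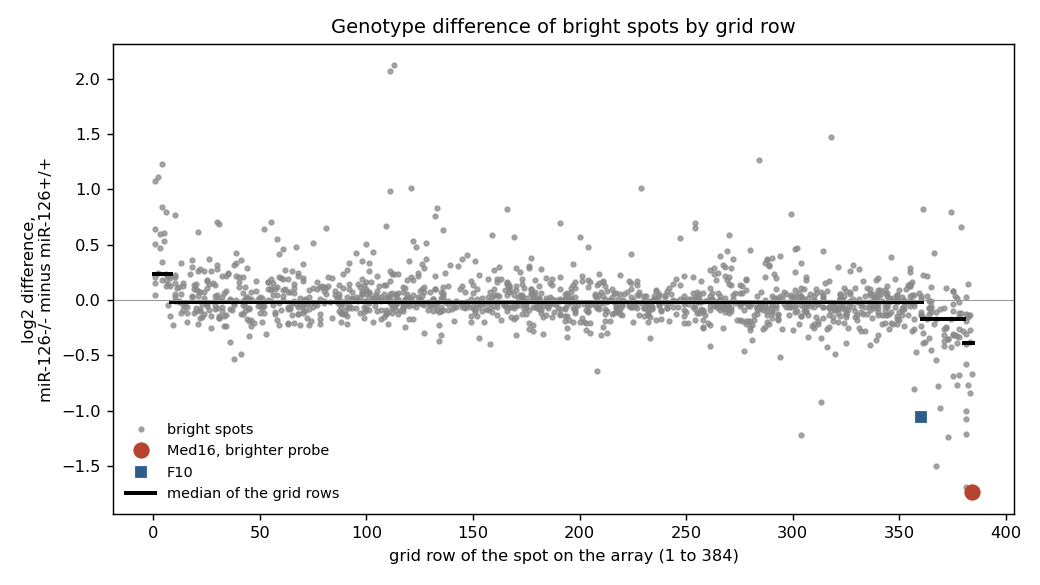
Genotype difference of each bright spot (vertical axis, log2, miR-126-/- minus miR-126+/+) against its grid row on the array (horizontal axis, 1 to 384), with black bars at the median of each group of rows. The medians are 0.23 in rows 1 to 8, -0.02 in rows 9 to 360, -0.17 in rows 361 to 380 and -0.39 in rows 381 to 384. In these last rows the brighter Med16 probe is the lowest point at -1.74 and is counted in the median.

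Some probes are printed in several copies, which allowed the same sequence on the same array to be read at different grid rows. There were 18 probes with a copy in rows 381 to 384 and at least 2 other copies in rows 1 to 360 whose mean signal was above the 75th percentile. The copies in the last rows differed from the median of the others by a median of -0.15 on the miR-126-/- arrays and 0.00 on the miR-126+/+ arrays. By array these medians were -0.08, -0.24, -0.15 and -0.16 for miR-126-/- and 0.01, -0.04, 0.05 and 0.00 for miR-126+/+, so that every miR-126-/- array lay below every miR-126+/+ array. The offset was lower on miR-126-/- arrays for 16 of the 18 probes, and a mean offset below -0.2 was seen for 4 probes on miR-126-/- arrays and 0 on miR-126+/+ arrays. For Rexo2 the copy in the last rows read -0.68, -0.67, -0.64 and -0.72 relative to the others on the miR-126-/- arrays, against 0.00, 0.00, 0.05 and -0.21 on the miR-126+/+ arrays. The other copies of Rexo2 had a mean log2 signal of 2.62. Of the 18 probes, only H2-K1 (6.72) and Ifitm3 (5.55) were above the level of 5 used for bright spots. Their mean offsets were -0.10 and 0.01 on the miR-126-/- arrays, against -0.04 and -0.03 on the miR-126+/+ arrays. None of these offsets was as large as the difference of the brighter Med16 probe, and their part in that difference was not tested. All arrays were on the same slide, and per the file headers the miR-126-/- arrays were in another row of the slide than the miR-126+/+ arrays, so position on the slide and genotype cannot be told apart. No Mediator probe other than the brighter Med16 probe lay in rows 381 to 384. The probes of Med18 (row 374) and Med12 (the brighter, row 373) and the brighter probe of Med8 (row 369) lay in rows 361 to 380.

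**Figure D3:**
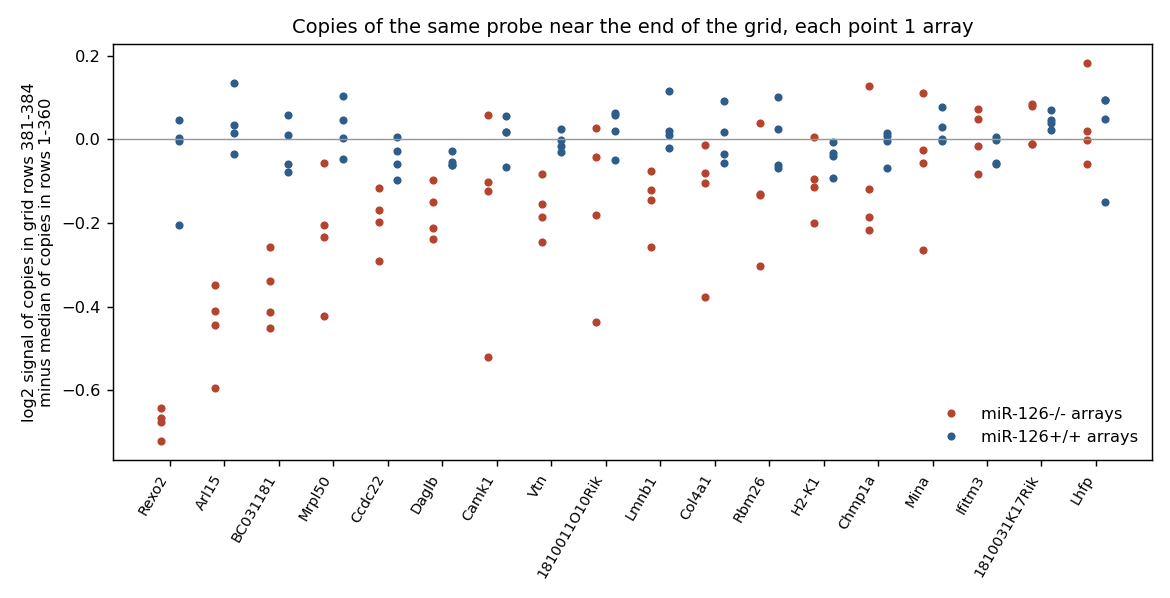
Signal of probe copies in grid rows 381 to 384 minus the median of the other copies of the same probe on the same array (vertical axis, log2), for 18 probes (horizontal axis), with 1 point per array. On miR-126-/- arrays the offsets reach -0.72 for Rexo2, and the lowest single offset on a miR-126+/+ array is -0.21.

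Across the family, 52 of the 53 probes, for 32 of the 33 genes, passed the filter on dim signals (well above background on 3 or more arrays of either genotype) and were compared, and 51 were well above background on all 8 arrays. In miR-126-/- arteries 18 of the 52 read higher and 34 lower (65.4% lower, against 51.8% of all 32486 probes tested). The median difference was -0.06 (-0.11 without array miR-126+/+ 2), and -0.05 without the brighter Med16 probe, against -0.01 over all probes. In the limma fit across all probes 0 Mediator probes were called higher (background 0.0185%) and 1 was called lower (background 0.0215%), which was the brighter Med16 probe. It was not called without array miR-126-/- 2, where its difference was -1.76, nor with the replicate number as a block (-1.74) or the mean of the adipocyte markers as a covariate (-1.48). At an unadjusted p under 0.05 there were 4 Mediator probes of 52 (background 9.88%). Genotypes did not overlap for 1 Mediator probe that was higher (background 3.41%) and 5 that were lower (background 2.64%). Since this contrast chose the family, nothing is read from these counts. Outside Med16 the largest difference in either direction was 0.42 in size, and 44 of the 52 probes (84.6%) lay within 0.25 of 0, against 71.3% of all probes.

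The spread within a genotype was not used to choose the family. The pooled within-genotype SD of the Mediator probes had a median of 0.13, with a lowest value of 0.03 for the brighter Med27 probe and a highest of 0.58 for the second Med8 probe. Over all probes tested the median was 0.23. The median spread of the Mediator probes was thus below that of all probes, which were not matched to them for brightness.

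**Figure D4:**
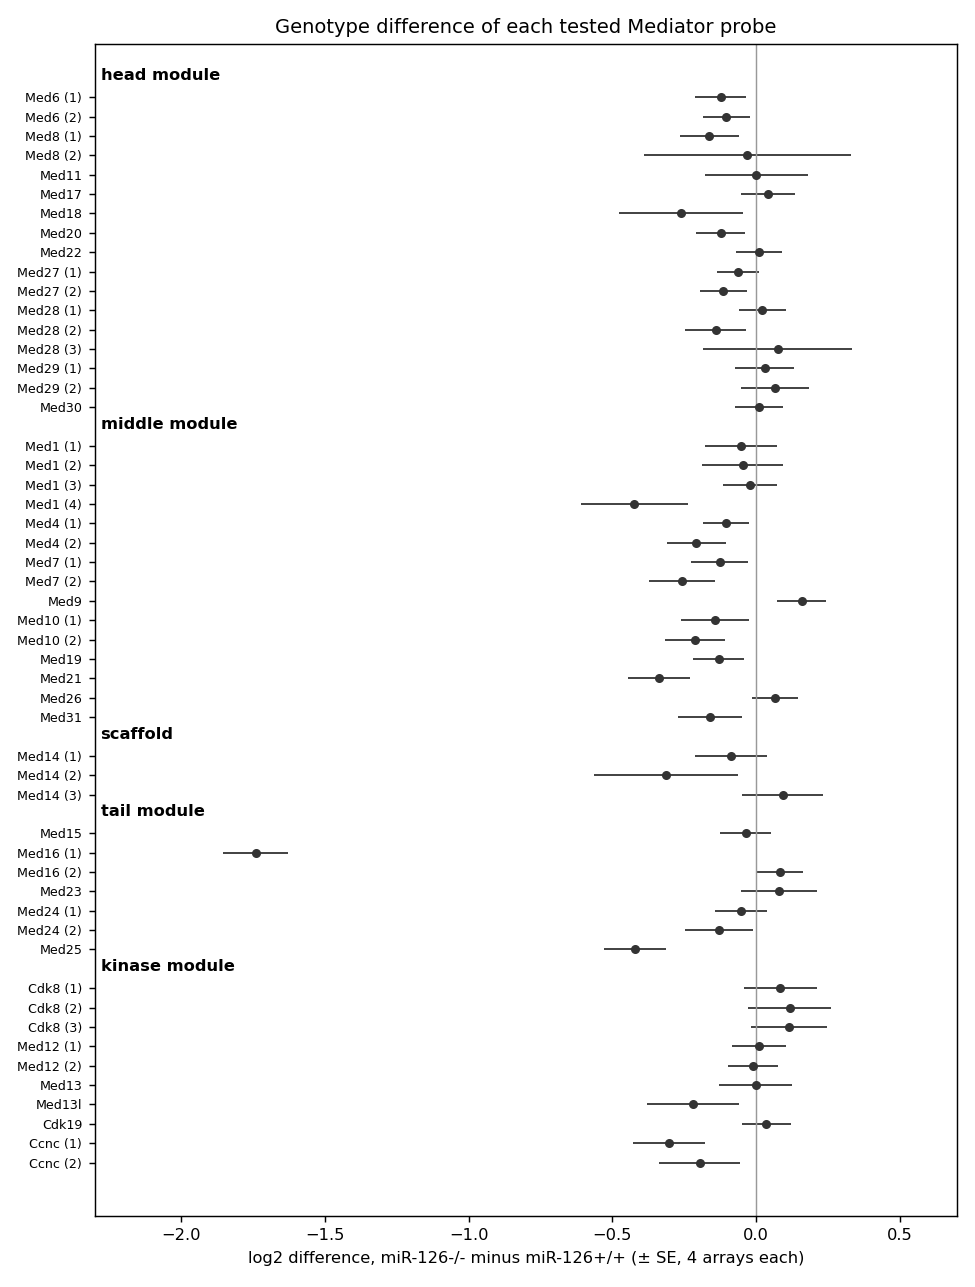
Genotype difference of each of the 52 tested Mediator probes (horizontal axis, log2, miR-126-/- minus miR-126+/+, with SE), ordered by module, with probes of a gene numbered by falling signal. Med16 (1) stands at -1.74, and every other probe lies between -0.42 and 0.16.

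The head list used here placed Med27, Med28, Med29 and Med30 in the head, and other placements of these subunits were not examined. By this list, 17 probes of 11 head module genes were compared. In miR-126-/- arteries 8 of them read higher and 9 lower, with a median of -0.03 and all values between -0.26 and 0.07. The lowest was Med18, part of a movable jaw of the head, at -1.66, -2.02, -2.05 and -2.74 on the miR-126-/- arrays, against -1.83, -1.90, -1.68 and -2.02 on the miR-126+/+ arrays. Its genotypes overlapped, and array miR-126-/- 4 lay well below the other 7. The highest was the dimmest of the Med28 probes, at -3.88, -3.55, -4.06 and -3.83 on the miR-126-/- arrays, against -3.65, -3.81, -4.68 and -3.48 on the miR-126+/+ arrays. That probe was well above background on 4 miR-126-/- and 3 miR-126+/+ arrays, and its difference of 0.07 ± 0.26 was small against its spread. The brighter Med27 probe was the head probe without overlap, at 2.26, 2.29, 2.29 and 2.31 on the miR-126-/- arrays, against 2.35, 2.31, 2.40 and 2.34 on the miR-126+/+ arrays. The genotypes were parted by less than the printed digits, with a difference of -0.06 ± 0.07, and the second Med27 probe differed by -0.11 ± 0.08 with overlap. Med17, the central scaffold of the head, differed by 0.04 ± 0.09, Med20 by -0.12 ± 0.08 and the brighter Med6 probe by -0.12 ± 0.09. Med11, Med22 and Med30 differed by 0.00, 0.01 and 0.01, and the Med29 probes by 0.03 and 0.07.

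Med8, which tethers the head's jaw subunits in yeast, had probes of unlike behaviour. The second Med8 probe, at chr4:118088226-118088285, read -1.64, -1.69, -0.74 and -0.67 on the miR-126-/- arrays, against -1.57, -0.59, -1.77 and -0.69 on the miR-126+/+ arrays. It thus took a pair of separate levels, at -1.77 to -1.57 on 4 arrays and at -0.74 to -0.59 on the other 4, and both levels occurred in both genotypes. The brighter Med8 probe, at chr4:118087655-118087714, read 3.29, 3.38, 3.38 and 3.16 on the miR-126-/- arrays, against 3.55, 3.39, 3.61 and 3.31 on the miR-126+/+ arrays, with no such split and a difference of -0.16 ± 0.10. The second probe was singled out after its values were seen. The mice were of mixed genetic background per the labels, and its part in these levels was not tested.

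The middle module links head and tail and includes the regulators Med1 and Med26. In miR-126-/- arteries 2 of its 15 probes, for 9 genes, read higher and 13 lower, with a median of -0.13 and values between -0.42 and 0.16. Over the brightest probe of each gene the median was also -0.13. It was -0.07 without array miR-126+/+ 3 and 0.02 with the mean of the adipocyte markers as a covariate. That mean was itself higher in miR-126-/- arteries, so this fit cannot fully part tissue composition from genotype. Med21, which forms the module's hinge with Med7, read 1.12, 1.14, 1.32 and 1.38 on the miR-126-/- arrays, against 1.59, 1.50, 1.77 and 1.45 on the miR-126+/+ arrays. All miR-126-/- values were below all miR-126+/+ values, with a difference of -0.34 ± 0.11. Its partner Med7 differed by -0.13 ± 0.10 and -0.26 ± 0.11 by its probes, both with overlap. The second probe of Med4, another core subunit of the module, read -3.06, -2.92, -3.00 and -2.90 on the miR-126-/- arrays, against -2.87, -2.54, -2.76 and -2.87 on the miR-126+/+ arrays. This was a separation without overlap by a narrow gap (difference -0.21 ± 0.10), and the brighter Med4 probe was at -0.10 ± 0.08 with overlap. Med9 ran the other way, at 0.72, 0.72, 0.83 and 0.93 on the miR-126-/- arrays, against 0.64, 0.59, 0.69 and 0.65 on the miR-126+/+ arrays. It was the 1 Mediator probe that was higher without overlap, by 0.16 ± 0.08.

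Med1, the subunit that binds nuclear receptors, had 4 probes. The fourth and dimmest, assigned in the files to another transcript than the other probes, read -2.15, -2.12, -2.69 and -2.00 on the miR-126-/- arrays, against -2.14, -1.89, -1.63 and -1.59 on the miR-126+/+ arrays. It was the lowest of the middle module at -0.42 ± 0.19, with overlap, while the other 3 Med1 probes differed by -0.05 ± 0.12, -0.05 ± 0.14 and -0.02 ± 0.09. The brightest Med1 probe shared at least 20 bases with 4 probes of other genes, and apart from it and the brighter Med16 probe no Mediator probe did. Med26, which recruits elongation factors, was the other middle probe that was higher, by 0.07 ± 0.08. Med10, Med19 and Med31 were lower by all of their probes, with differences of -0.14 and -0.21 for Med10, -0.13 for Med19 and -0.16 for Med31, each with overlap.

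The backbone subunit Med14 had 3 probes. The second read 0.43, -0.17, -0.17 and -0.01 on the miR-126-/- arrays, against 0.63, 0.83, 0.07 and -0.19 on the miR-126+/+ arrays, with wide spread in both genotypes and a difference of -0.31 ± 0.25. The dimmest read -3.33, -2.86, -2.88 and -3.12 on the miR-126-/- arrays, against -3.12, -3.29, -3.26 and -2.90 on the miR-126+/+ arrays, a difference of 0.09 ± 0.14. The brightest differed by -0.09 ± 0.12. All 3 overlapped between genotypes and did not share a direction.

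Among the other tail subunits, Med25, a docking surface for activators such as the viral protein VP16, stood apart. It read 2.21, 2.26, 2.24 and 2.37 on the miR-126-/- arrays, against 2.54, 2.86, 2.54 and 2.82 on the miR-126+/+ arrays. All miR-126-/- values lay below all miR-126+/+ values, with a difference of -0.42 ± 0.11. Its single probe, at chr7:52136400-52136459, is in grid row 26 and shares no run of 20 bases with another probe. Med15, bound by the lipid regulator SREBP, differed by -0.04 ± 0.09, Med23, a partner of Elk1, by 0.08 ± 0.13, and the Med24 probes by -0.05 ± 0.09 and -0.13 ± 0.12, all with overlap. By the list used here, the tail module had 2 probes higher and 5 lower, with a median of -0.05.

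**Figure D5:**
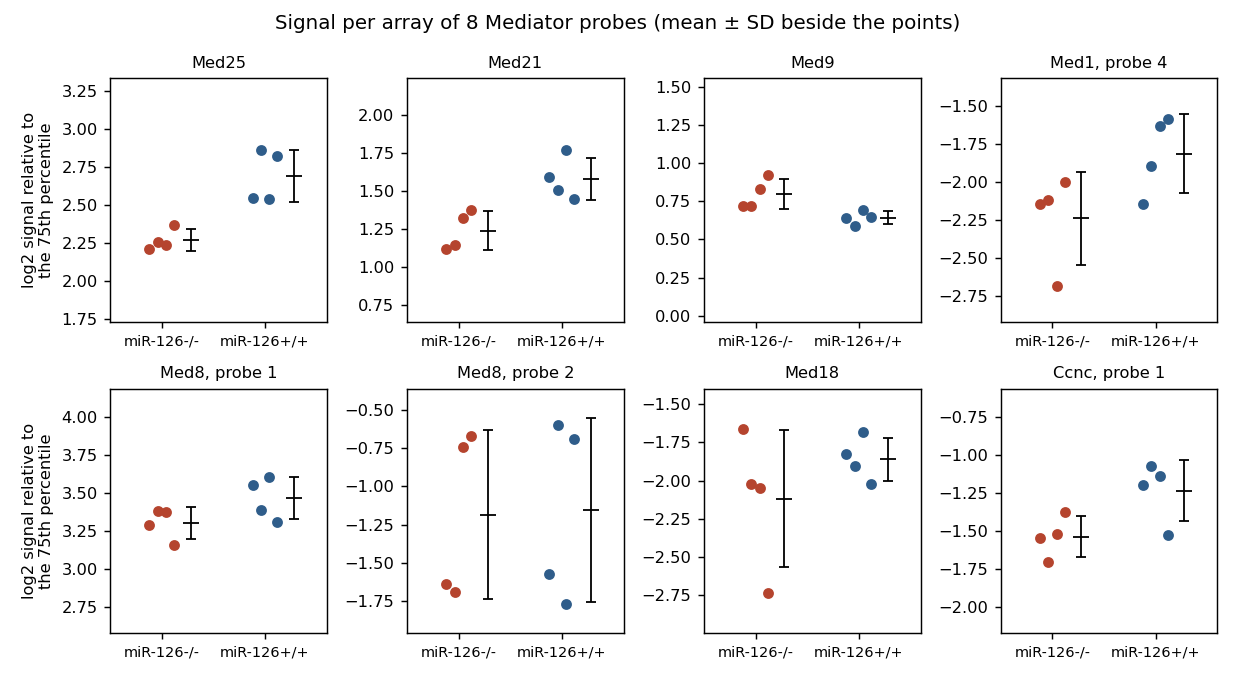
Signal on each array (vertical axes, log2 units scaled to the 75th percentile) of 8 Mediator probes, miR-126-/- left of miR-126+/+, with the mean ± SD of 4 arrays beside the points. Med25 and Med21 are lower and Med9 higher in miR-126-/- without overlap, and the second Med8 probe takes a pair of separate levels in both genotypes.

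The kinase module had 5 probes higher and 5 lower in miR-126-/- arteries, with a median of 0.00. The brighter probe of Ccnc, the gene of cyclin C, was the lowest, at -1.55, -1.70, -1.52 and -1.37 on the miR-126-/- arrays, against -1.20, -1.07, -1.14 and -1.52 on the miR-126+/+ arrays. The fourth miR-126+/+ array lay among the miR-126-/- values, and the difference was -0.30 ± 0.13. The second Ccnc probe differed by -0.20 ± 0.14, with overlap. Cdk8, the kinase that cyclin C activates, was at the other end by its second probe, with 0.52, 0.81, 0.90 and 0.96 on the miR-126-/- arrays, against 0.88, 0.61, 0.42 and 0.81 on the miR-126+/+ arrays. All 3 Cdk8 probes were higher by 0.08 to 0.12, each within its spread. Cdk19, the paralogue of Cdk8, differed by 0.04 ± 0.08. Med12, which activates the kinase, differed by 0.01 ± 0.10 and -0.01 ± 0.09 by its probes, Med13, which ties the module to the core, by -0.00 ± 0.13, and its paralogue Med13l by -0.22 ± 0.16. Med12l, the paralogue of Med12, was well above background on 0 miR-126-/- arrays and 1 miR-126+/+ array. It read -7.69, -7.43, -7.33 and -7.24 on the miR-126-/- arrays, against -4.87, -7.16, -6.85 and -7.86 on the miR-126+/+ arrays, and no fold is given.

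The partners of Mediator at promoters were described by the brightest probe of each gene. For the RNA polymerase II subunits, 6 of 12 read higher and 6 lower in miR-126-/- arteries, with a median of -0.01, and limma called 0 (background 0.0252% of genes in each direction, and 0 at an unadjusted p under 0.05, where the background was 10.0% of genes). For the general transcription factors, 9 of the 30 tested read higher and 21 read lower, for a median of -0.03, and 0 were called (1 at an unadjusted p under 0.05). Gtf2h5, a small TFIIH subunit, was the lowest of them, at 2.46, 1.68, 1.62 and 1.39 on the miR-126-/- arrays, against 2.18, 2.69, 2.71 and 2.24 on the miR-126+/+ arrays (-0.67 ± 0.25, limma adjusted p = 0.421), with overlap through array miR-126-/- 1. The highest of that list was Ercc2 at 0.23 ± 0.12 (limma adjusted p = 0.601), and Taf3 was at 0.22 ± 0.11 (limma adjusted p = 0.574). For the coactivators and elongation factors, 11 of 20 read higher and 9 lower, for a median of 0.01, and 0 were called (2 at an unadjusted p under 0.05). Ppargc1a, a metabolic coactivator that works with Med1, was at 0.56 ± 0.23 (limma adjusted p = 0.479), the receptor coactivator Ncoa3 at 0.18 ± 0.08 (limma adjusted p = 0.504) and the acetyltransferase gene Ep300 at 0.17 ± 0.12 (limma adjusted p = 0.699). Over all 23831 genes the median was -0.01.

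Facts of the whole set of arrays that bear on these values were as follows. The 75th percentile of the processed signal was between 617 and 861 intensity units, and 55.9% to 61.5% of probes were well above background on an array. Of the artery's own markers, 13 of 14 smooth muscle genes and 15 of 15 endothelial genes were well above background on all arrays. Egfl7, the host gene of miR-126, read 6.26 ± 0.18 in miR-126-/- arteries and 5.79 ± 0.17 in miR-126+/+ arteries (SD, n = 4 each, difference 0.48 ± 0.13, limma adjusted p = 0.273). That probe does not read the microRNA and does not check its deletion. Apoe, the gene for which both groups are labelled -/-, read 2.38 ± 0.28 in miR-126-/- arteries and 1.77 ± 0.53 in miR-126+/+ arteries (SD, n = 4 each, difference 0.61 ± 0.27, limma adjusted p = 0.516). The sources used here do not say whether the Apoe probe lies in the deleted part, so it does not check that deletion either. Adipocyte markers read higher in miR-126-/- arteries for 20 of 20, with a median difference of 1.28 and a summed linear signal, relative to the 75th percentile, of 760.2 to 1326.6 on miR-126-/- arrays against 339.3 to 774.4 on miR-126+/+ arrays. Limma called 0 of these 20 after adjustment, and 17 had an unadjusted p under 0.05 (background 10.0%). Endothelial markers read higher for 14 of 15 (0 called, 5 at an unadjusted p under 0.05 against the same background, summed signal 155.5 to 205.0 on miR-126-/- arrays against 124.1 to 155.5 on miR-126+/+ arrays), and macrophage markers read lower for 9 of 11 (290.1 to 411.2 on miR-126-/- arrays against 302.6 to 446.1 on miR-126+/+ arrays). Smooth muscle markers read higher for 10 of 14 (463.7 to 731.9 on miR-126-/- arrays against 499.7 to 579.8 on miR-126+/+ arrays). The smooth muscle differences lay between -1.81 and 0.92, with a median of 0.12. Limma called 0 smooth muscle and 0 macrophage markers. At an unadjusted p under 0.05 there were 1 smooth muscle and 0 macrophage markers (background 10.0%). Skeletal muscle markers read higher for 9 of 13, at 10.1 to 194.9 against 6.0 to 173.1 on miR-126+/+ arrays, with the highest sum of each genotype on arrays miR-126-/- 1 and miR-126+/+ 2. Their median difference of 0.21 rested on single arrays, at -0.75 without miR-126-/- 1, -0.44 without miR-126+/+ 1, -0.45 without miR-126+/+ 4 and 1.43 without miR-126+/+ 2. When the mean of the adipocyte markers entered the fit as a covariate, the difference of the brighter Med16 probe was -1.48. Since that mean differed by genotype, this fit cannot fully part composition from genotype. The part of tissue composition in the Mediator values was not tested beyond this.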

How the data were processed

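Per the labels, Cy3-labelled RNA of injured carotid arteries was read on 1-colour mouse arrays of Agilent. The deposited scanner files hold intensity values, the processed signal of Agilent Feature Extraction 10.7.3.1 per the file headers. The deposited value table holds nearly the same linear intensity, with a median log2 difference of 0 and 99.87% to 99.94% of probes within 0.1 on each array.

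Control spots and outlier spots (146 to 216 per array) were left out, and no spot was saturated. Spots of a probe were averaged on the log2 scale after subtracting each array's 75th percentile. Probes well above background on at least 3 of 4 arrays of a genotype (32486) were fitted with limma 3.58.1 in R 4.3.3 (lmFit, eBayes, no covariate), adjusted by Benjamini-Hochberg over all probes at 0.05. SE values are limma's moderated ones. A total of 3093 probes were renamed through RefSeq accessions, and promoter windows are RefSeq's on GRCm38.p6. Positions are on mm9 per the file headers. Named probes were all Med16 probes, the highest and lowest of each module, those called or without overlap, and up to 4 genes of each other list.

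The members, lists and tests were chosen with earlier results of these data known. The labels do not say whether replicate numbers pair the samples. Deviations of arrays with the same number had correlations of 0.18, -0.29, -0.04 and 0.00, which cannot settle this.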

Additional observations from a re-analysis of the deposited data

Results flagged for a closer look

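In 3 of the 104 groups of 4 arrays examined (52 Mediator probes in each genotype) a single array stood far from the other 3, where chance gives about 1 group in 20, or 5.2. The second Med10 probe read 1.97 on array miR-126-/- 4, against 1.67 to 1.70 on the other miR-126-/- arrays. The Med26 probe read 0.95 on array miR-126+/+ 3, against 1.03 to 1.04 on the other miR-126+/+ arrays. The second Med24 probe read 0.45 on array miR-126-/- 3, against 0.07 to 0.09 on the other miR-126-/- arrays.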

How the results depend on the processing

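The number of Mediator probes called was 1, and 0 with the replicate block, with the adipocyte markers' mean in the fit as a covariate, without array miR-126-/- 2 (range 0 to 1 when leaving out each array in turn) and, as an alternative chosen after seeing the data, without the Med16 probe in the last grid row. The brighter Med16 probe was at -1.92 with normexp background correction and at -1.48 with the adipocyte covariate, and between -1.80 and -1.67 when leaving out each array. The second Med16 probe was at 0.0115 with that covariate, and between 0.04 and 0.10 leaving out arrays. The distance between them was 1.49 with it, and between 1.70 and 1.90. The Mediator median was -0.1059 without miR-126+/+ 2 (range -0.1059 to -0.0576). List medians, here over the brightest probe of each gene, moved by more than their spread between arrays of a genotype for the head module (main value 0.0007, -0.077 without miR-126+/+ 2, -0.0522 without miR-126-/- 4, range -0.077 to 0.0058) and the middle module (main value -0.1272, 0.0221 with the adipocyte covariate, range -0.1431 to -0.0731, the upper end without miR-126+/+ 3). They also moved for the kinase module (main value 0.0037, -0.0941 with normexp, -0.1785 with the adipocyte covariate), RNA polymerase II (main value -0.0061, 0.0832 with that covariate) and the adipocyte list itself (main value 1.28, 0.1593 with it). Leaving out arrays also gave wide ranges for lists that stayed within that spread, at -0.75 to 1.43 for skeletal muscle, -0.24 to 0.0203 for macrophage and 0.0403 to 0.26 for smooth muscle markers and -0.17 to -0.0328 for Med14. Of 1030 values of 50 single probes under the alternatives, 27 moved beyond the within-genotype spread and 1003 did not. Over all probes, 13 were called (3209 at an unadjusted p under 0.05), against 39 with normexp, 40 with array weights, 32 with the brightest probe per gene, 8 with an intensity trend, 7 when well above background on all 8 arrays, 1 with the skeletal muscle covariate, 0 with the replicate block (2876 unadjusted) and 0 with the adipocyte covariate (1503 unadjusted). Leaving out arrays gave 0 without miR-126-/- 2 (2520 unadjusted) up to 52 without miR-126+/+ 4. The cause of these shifts was not tested. The adipocyte covariate itself differed by genotype, so its fits cannot fully part tissue composition from genotype. Whether replicate numbers pair the samples is not known. The number of arrays, 4 of each genotype, limits the precision.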
